A study of Mus musculus with 25 samples.

Results

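The 38 genes described here build and equip surface epithelium: 9 keratins, 6 desmosome genes, 4 tight junction genes, 3 adhesion genes, 6 transcription factors, 2 splicing regulators, 4 membrane proteases and protease inhibitors, 2 trafficking genes, and Sfn and Fgfbp1. They were chosen by name as keratin, junction and periderm genes, and all 38 were found among the 37406 genes measured. Their levels came from 25 RNA-seq libraries of the palate of wild type CD1 mouse embryos at E14.5, soon after the palatal shelves had met and fused at the midline. Laser capture microdissection took 4 compartments of the anterior palate (medial, lateral, oral and nasal), and the same 4 of the posterior palate. Each of the 8 groups had 3 libraries, except anterior nasal with 4. No group was treated, and the question was how gene expression differed with position. The labels do not say whether replicates came from separate embryos, so p-values measure the spread between these libraries.

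Epithelial sheets are held together by keratin filaments, which are built from 1 type I and 1 type II keratin and are anchored to desmosomes. Basal cells of stratified epithelium make Krt5 with Krt14 and Krt15, whereas simple and ciliated epithelium makes Krt8 with Krt18 and Krt19. The embryonic surface is covered by periderm, a flat outer layer known for Krt6a, Krt17, Krt8 and Sfn, which stops surfaces from sticking together too early. In the palate the epithelia of the facing shelf edges form a midline seam that is then lost, while the oral side becomes stratified and the nasal side ciliated.

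Levels are given as RPKM, the reads on a gene scaled by its length and by the library's total, so that genes can be compared with each other per length. The depth implied by the values lay between 1639500 and 6556000 reads per library, as inferred from the steps between low values. Its absolute scale is uncertain, as 18 of 92 genes compared matched a listed transcript length. The paper gives a far higher average number of reads per sample, and the gap was not explained here. Prss8 was also at 0.00711 RPKM in anterior oral 1, where 1 read on 2000 bases would be 0.305 RPKM. At the implied median depth a transcript of 2000 bases with 1 read would have a level of 0.153 RPKM. At the implied depths a level of 5 RPKM would carry a counting error of 12.4 to 24.7%. These limits cover counting error only, and hold only if the implied depth does. The correlation of log2 levels between replicates ranged from 0.658 to 0.945, and was lowest between the first and second posterior medial libraries. In the second 11.8% of the genes with a median of at least 1 RPKM were at 0, against 0.350% in the median library, so the main results that include it are also given without it. The alignment names of 6 libraries hold ERK2 or Tgfbr2, although every label reads wild type. ERK2 is in those of posterior medial 1 and posterior lateral 1. Tgfbr2 is in those of anterior oral 3, anterior nasal 4, posterior oral 1 and posterior nasal 1. The names of anterior nasal 1 and anterior nasal 2 hold Zymo and SDS. What these names mark is not given in the sources used here.

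The epithelial genes were a minor share of every library. Their summed level ran from 67.6 RPKM in posterior lateral 3 to 312 RPKM in posterior medial 2, whereas 12 mesenchyme genes, Col1a1, Twist1 and Prrx1 among them, summed to between 849 and 1679 RPKM. Genes of both tissues were read in all 25 libraries. In these bulk samples fewer epithelial cells and less epithelial RNA per cell cannot be told apart. The sum was 214 ± 55.6 (mean ± SD, n = 3) in anterior medial and 140 ± 37.8 (n = 3) in anterior lateral libraries, and their ranges overlapped at 174 and 176 RPKM. It was 211 ± 87.7 (n = 3) in posterior medial and 87.7 ± 18.6 (n = 3) in posterior lateral libraries, which did not overlap. The oral sums were 139 ± 53.6 (n = 3) anteriorly and 92.6 ± 6.36 (n = 3) posteriorly, and the nasal sums 204 ± 57.1 (n = 4) and 121 ± 36.3 (n = 3). Posterior medial 1 and 3 each summed to 161 RPKM, so the posterior medial group stayed above the posterior lateral one without its second library. That library had the highest sum but also 18 of the 38 genes at 0, and 14 genes above both of its replicates.

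**Figure D1:**
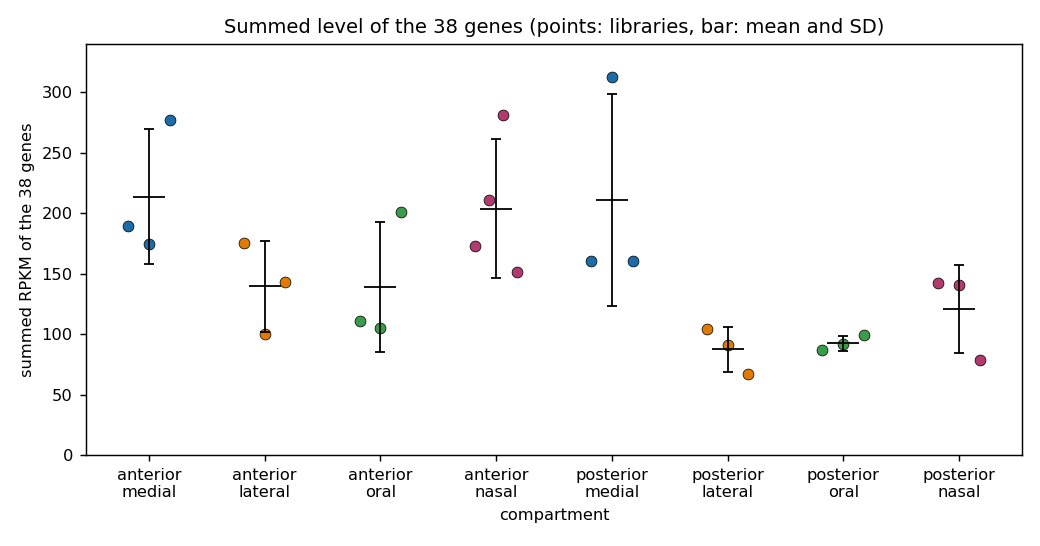
Summed RPKM of the 38 genes in each compartment, with 1 point per library and the mean and SD as bars. The posterior lateral libraries lie between 67.6 and 104 RPKM, below all posterior medial libraries, and posterior medial 2 stands highest at 312 RPKM.

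A few genes carried much of this signal. Jup, Krt15, Krt14, Perp and Krt5 together made up 46.6% of the summed level, and 7 genes reached 5 RPKM in at least 13 libraries. Of the remainder, 14 genes reached 5 RPKM in no library. The compartment with the highest mean was anterior nasal for 15 genes, posterior medial for 9 and anterior medial for 7. Without posterior medial 2 these counts were 17, 5 and 9. The lowest mean was in posterior lateral for 15 genes and in posterior oral for 13. The single highest value fell in anterior nasal 3 for 13 genes and in posterior medial 2 for 9.

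**Figure D2:**
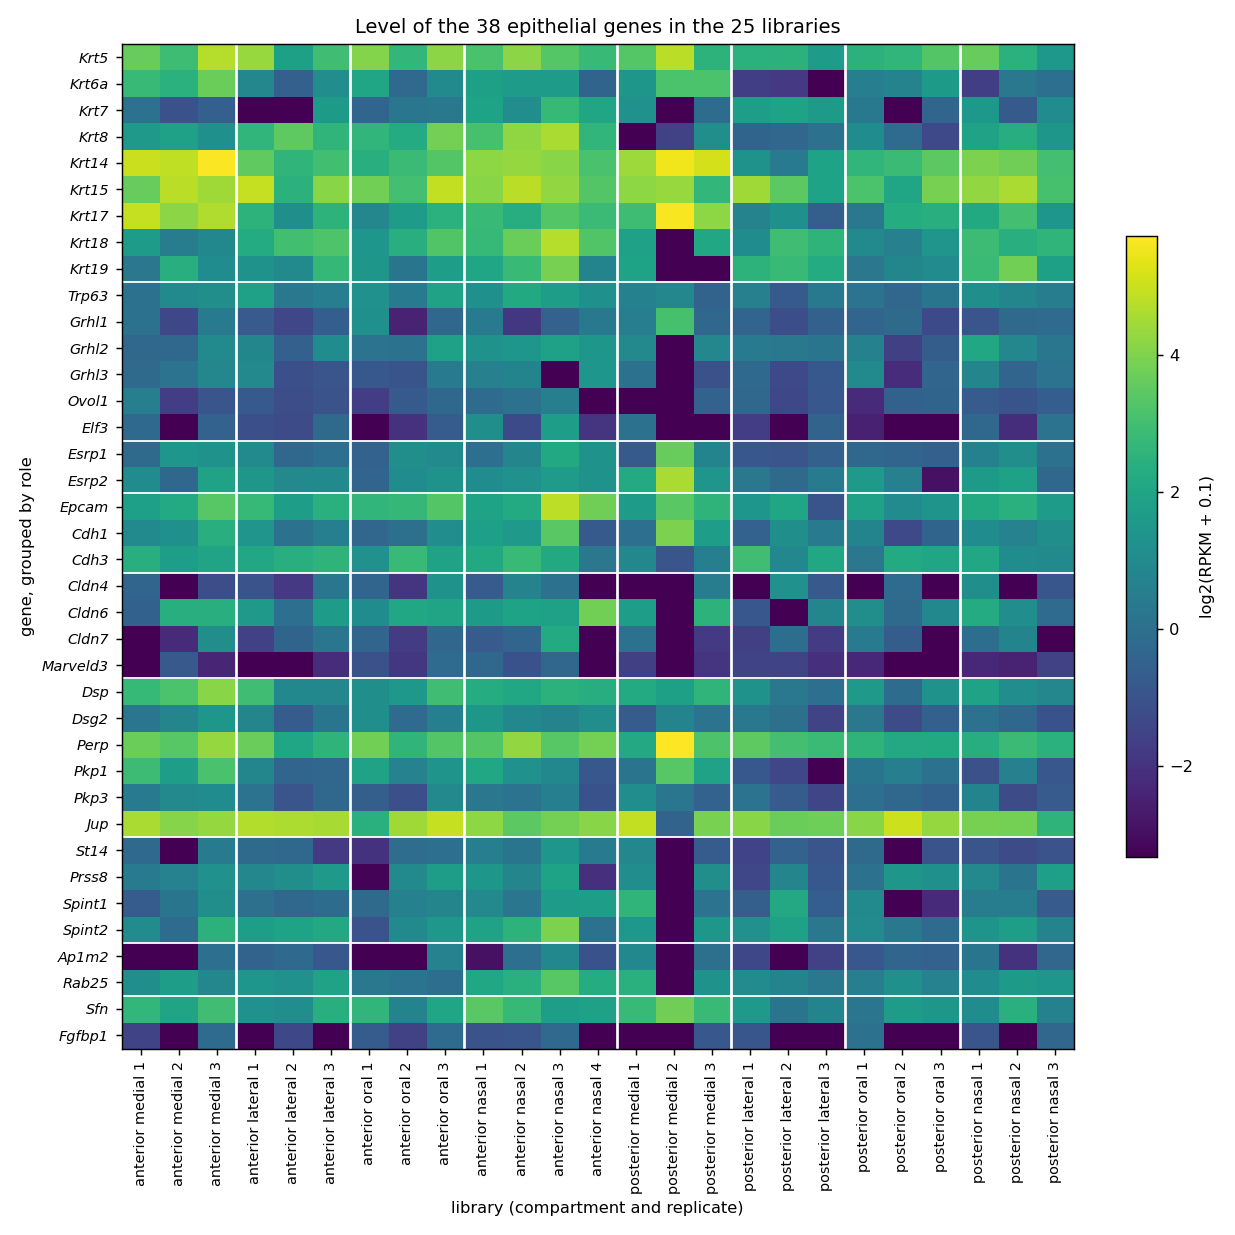
Heat map of log2(RPKM + 0.1) for the 38 genes (rows, by role) in the 25 libraries (columns, by compartment). Krt14, Krt17 and Krt6a are brighter in medial than in lateral columns, anterior nasal 3 holds the highest value of 13 genes, and posterior medial 2 is darkest for the 18 genes at 0 there.

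The keratins lie in a type I cluster and a type II cluster of mm9, the genome build of the table. Type I genes lie at chr11:100064476-100068824 (Krt14) and chr11:100117531-100122303 (Krt17), with Krt15 and Krt19 in the same cluster. Type II genes lie at chr15:101537501-101543322 (Krt5), chr15:101520359-101524736 (Krt6a) and chr15:101827142-101834773 (Krt8), where Krt18 at chr15:101858647-101862457 is the 1 type I gene in the type II cluster. The 250 bases before the RefSeq start sites, in the later build GRCm38.p6, are shown for a basal keratin, for the Krt8 and Krt18 pair described together below, and for Epcam. Capitals mark CACCTG on either strand, the E box bound by SNAI and ZEB factors, which are known repressors of epithelial genes.

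Krt5, chr15:101712906-101713155, minus strand: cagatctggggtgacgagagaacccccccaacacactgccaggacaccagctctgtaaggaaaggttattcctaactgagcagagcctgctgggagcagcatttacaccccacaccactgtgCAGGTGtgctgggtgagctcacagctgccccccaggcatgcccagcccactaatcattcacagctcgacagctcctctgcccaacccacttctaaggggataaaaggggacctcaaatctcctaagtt
Krt8, chr15:102004343-102004592, minus strand: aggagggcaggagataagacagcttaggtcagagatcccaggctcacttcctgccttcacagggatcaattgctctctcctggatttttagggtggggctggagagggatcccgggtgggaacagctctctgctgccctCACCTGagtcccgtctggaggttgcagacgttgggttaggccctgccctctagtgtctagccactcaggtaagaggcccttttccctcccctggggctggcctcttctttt
Krt18, chr15:102027966-102028215, plus strand: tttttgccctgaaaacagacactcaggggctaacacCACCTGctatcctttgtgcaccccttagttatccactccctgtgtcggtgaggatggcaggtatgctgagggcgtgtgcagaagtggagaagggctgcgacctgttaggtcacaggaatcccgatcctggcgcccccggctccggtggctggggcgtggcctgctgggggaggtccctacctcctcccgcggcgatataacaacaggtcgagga
Epcam, chr17:87635729-87635978, plus strand: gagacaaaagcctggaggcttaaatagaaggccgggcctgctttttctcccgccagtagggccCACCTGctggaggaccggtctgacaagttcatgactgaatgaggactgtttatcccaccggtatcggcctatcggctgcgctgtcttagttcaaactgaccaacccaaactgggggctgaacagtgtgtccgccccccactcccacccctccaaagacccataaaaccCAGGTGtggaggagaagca

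RefSeq promoters were used for 20 of the 38 genes, 22 promoters in all. Dsg2, on chromosome 18, was left out by a filter on that chromosome, which was not applied to the promoters of all genes. CACCTG was in 14 of the 22 (63.6%) and in 17.2% of all 32851 promoters of the same length. The GC box GGGCGG was in 11 (50%, against 32.7% of all), the AP-2 site GCCNNNGGC in 6 (27.3%, against 13.7%), the GRHL half-site AACCGG in 3 (13.6%, against 5.62%), and the TATA core TATAAA in 0, against 12.4%. Both strands were searched, and these shares describe letters in a window, not bound sites.

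Of the keratins, Krt14 had the highest mean level in both medial compartments. Its anterior medial levels were 32.5, 29.2 and 51.0 RPKM and its posterior medial levels 21.3, 47.2 and 35.4 RPKM. Lateral levels were 11.4, 5.97 and 7.90 RPKM anteriorly and 2.35, 1.19 and 3.75 RPKM posteriorly. All 6 medial libraries lay above all 6 lateral ones, and oral and nasal libraries lay between 5.15 and 19.6 RPKM. Medial libraries also lay above all lateral ones for Krt17, at 7.53 RPKM or more against 5.70 RPKM or less. For Krt6a they did so at 2.67 RPKM or more against 2.06 RPKM or less.

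Not all family members of Krt14 shared this distribution. Krt15, the other type I keratin of basal cells, ranged from 3.75 to 30.9 RPKM with overlapping groups in every comparison. The ratio of Krt14 to Krt15 was 1.05 to 5.60 in the 6 medial libraries, 0.108 to 1.06 in the 6 lateral, 0.331 to 1.83 in the 6 oral and 0.568 to 1.05 in the 7 nasal libraries. Krt14 thus exceeded Krt15 in every medial library. Krt17, a keratin of periderm and of activated epithelium, had a ratio to Krt14 of 0.353 to 1.07 in medial and 0.152 to 1.87 in lateral libraries, which overlapped. Krt5, the type II partner of Krt14, was lower than Krt14 in all medial libraries. The ratio of Krt14 to Krt5 was 1.70 to 6.26 in medial and 0.213 to 1.71 in lateral libraries.

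Krt18 is set against Krt14 next, as a simple against a basal keratin. The ratio of Krt18 to Krt14 was 0 to 0.167 in medial and 0.410 to 6.57 in lateral libraries, which did not overlap. Since Krt14 itself differed between these compartments, the ratio does not show how Krt18 differed. The oral range was 0.205 to 0.976 and the nasal range 0.363 to 1.52. These ratios are descriptions with no test, and reads that fit several places were removed, so levels of near-identical keratins such as Krt6a, Krt14 and Krt17 and of genes with pseudogene copies such as Krt8 and Krt18 are uncertain.

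**Figure D3:**
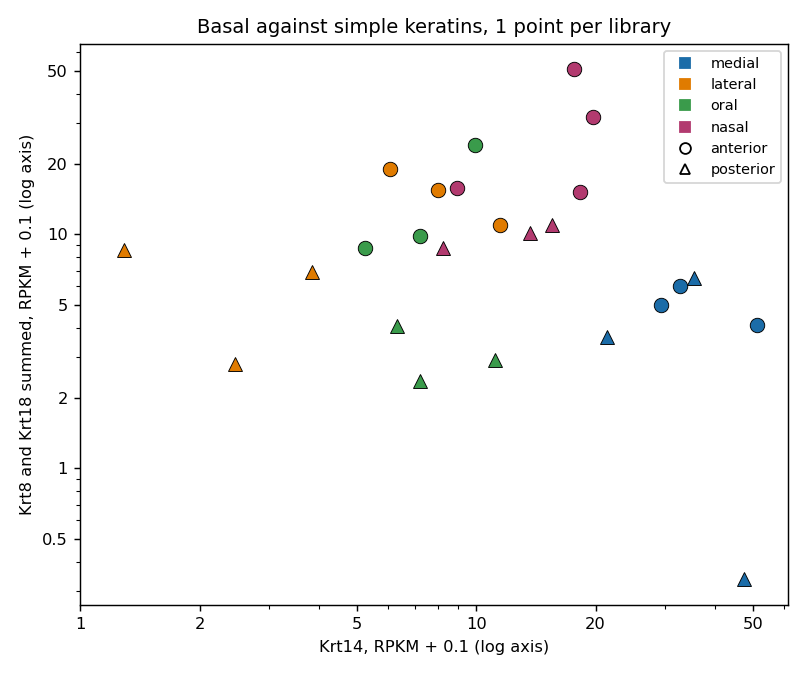
Krt14 (horizontal, RPKM + 0.1, log axis) against the sum of Krt8 and Krt18 (vertical, RPKM + 0.1, log axis), 1 point per library, coloured by compartment, circles anterior and triangles posterior. Medial libraries lie farthest right, with Krt14 at 21.3 RPKM or more, and posterior lateral libraries farthest left, at 3.75 RPKM or less.

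**Figure D4:**
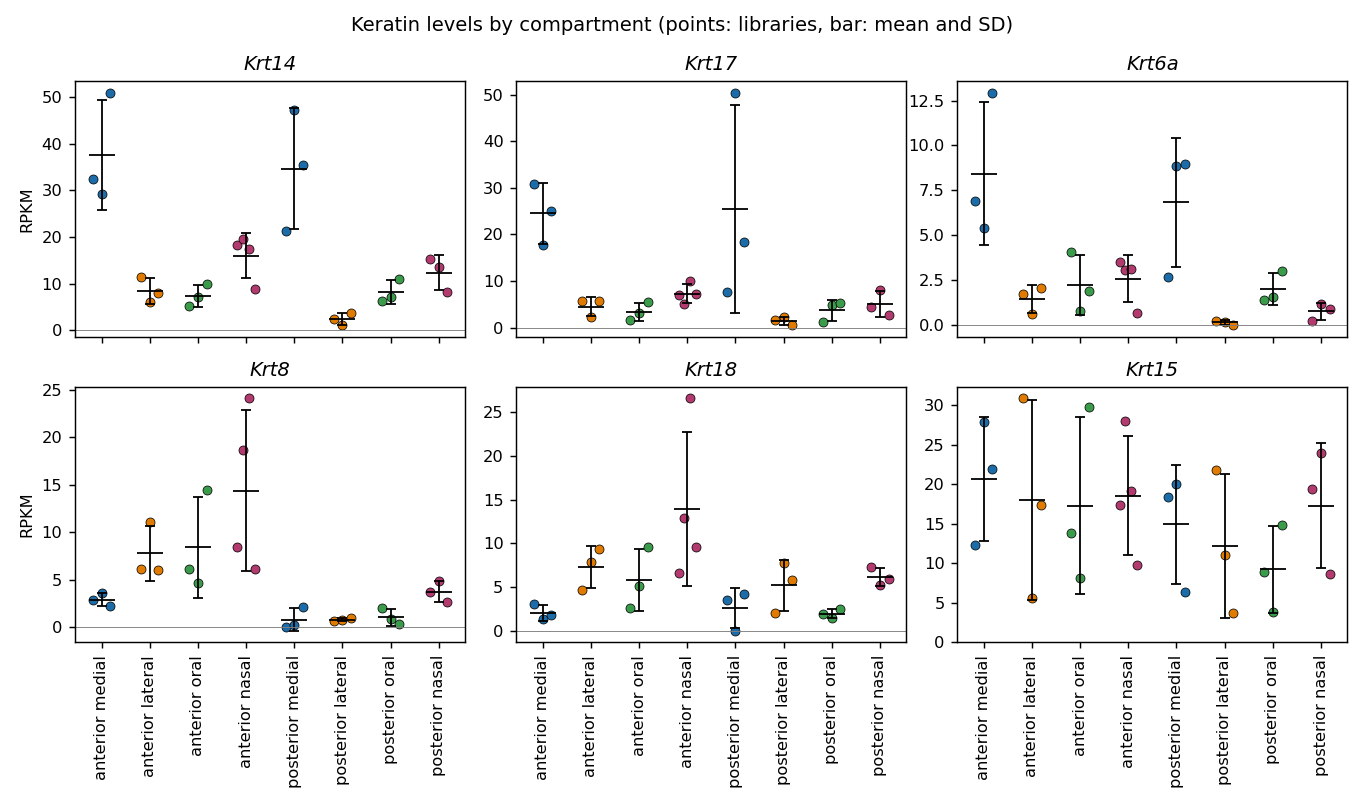
RPKM of 6 keratins in the 8 compartments, with 1 point per library and the mean and SD as bars. Krt14, Krt17 and Krt6a stand highest in medial compartments, Krt8 and Krt18 in anterior nasal, and Krt15 overlaps throughout.

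The anterior lateral and medial compartments were compared first. Krt14, Krt17 and Krt6a were lower in the lateral compartment and Krt8 was higher there, while Krt5 and Krt15 passed neither threshold. Differences were tested with limma on log2(RPKM + 0.1), over all genes that reached 5 RPKM in 3 or more of the libraries compared, and log2 differences are lateral minus medial on that scale, which understates the change of low genes. A gene was called by an adjusted p (Benjamini-Hochberg) under 0.05, or by the thresholds of the study, an unadjusted P under 0.05 with a fold change over 2. Of the 38 genes 12 reached the minimum, and 4 of them were called by adjusted p, 3 lower and 1 higher, where 2.51% of the 10427 genes tested were called. Of these, Krt6a reached 5 RPKM in medial libraries only and Krt8 in lateral libraries only. Each was thus tested only because it was high there, which favoured its direction. By the thresholds of the study 6 were called, 5 lower and 1 higher, where 2.37% of all genes were. The median log2 difference of the 12 was -0.83, against -0.03 over all genes tested.

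Krt14 fell 4.44-fold, from 37.6 ± 11.7 RPKM in medial (SD, n = 3) to 8.42 ± 2.75 RPKM in lateral libraries (n = 3). The log2 difference was -2.15 ± 0.28 (SE) with an adjusted p of 0.0104. Krt17 levels were 30.8, 17.8 and 25 RPKM medially and 5.70, 2.20 and 5.65 RPKM laterally, and the groups did not overlap. It fell 5.65-fold, with a log2 difference of -2.50 ± 0.38 and an adjusted p of 0.0178. Krt6a, an inducible keratin of periderm, was at 6.91, 5.40 and 12.9 RPKM medially and 1.75, 0.590 and 2.06 RPKM laterally. It fell 5.67-fold, with a log2 difference of -2.50 ± 0.48 and an adjusted p of 0.0419.

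Krt8 rose instead. It was at 2.88, 3.57 and 2.22 RPKM medially and 6.16, 11.1 and 6.02 RPKM laterally, without overlap. Its log2 difference was 1.36 ± 0.27, or 2.56-fold, with an adjusted p of 0.0498. Krt18, its partner, was under the minimum at 3.06, 1.31 and 1.76 RPKM medially and 4.66, 7.91 and 9.36 RPKM laterally. Those groups did not overlap either, and in the fit of all genes above 0 Krt18 was 3.52-fold higher laterally (unadjusted P = 0.00484, adjusted p = 0.150).

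Of the 3 desmosome genes tested, 2 were lower laterally by the thresholds of the study. Dsp, the plaque protein that ties keratin filaments to the desmosome, was at 6.60, 8.84 and 17.4 RPKM medially and 7.64, 1.77 and 1.74 RPKM laterally. Its groups overlapped through anterior lateral 1, and it had a log2 difference of -1.77 ± 0.59 and an adjusted p of 0.208. Perp, a membrane protein of desmosomes, was at 12.9, 10.4 and 19.6 and 12.61, 4.03 and 5.93 RPKM, also with overlap, and had a log2 difference of -1.03 ± 0.41 and an adjusted p of 0.293. Jup, plakoglobin, was at 24.3, 17.0 and 19.6 and 25.9, 24.7 and 23.7 RPKM and was not called (log2 difference 0.30 ± 0.15).

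The plakophilins lay under the minimum. Pkp1 was at 7.41, 3.19 and 8.71 RPKM medially and 1.68, 0.668 and 0.692 RPKM laterally, and the unfiltered fit gave a 5.86-fold lower lateral level (unadjusted P = 0.00322, adjusted p = 0.124). Pkp3 was at 1.20, 1.84 and 2.03 and 1.01, 0.419 and 0.732 RPKM, 2.24-fold lower in the same fit (unadjusted P = 0.0170). With no filter 8 of the 38 genes passed the thresholds of the study, 6 lower and 2 higher, where 5.28% of 18669 genes did, and 0 by adjusted p, where 0.841% did, while the median was -0.34 against 0.00 over all genes. Krt5, Krt15, Epcam, Cdh3, Jup and Sfn reached the minimum without being called, at log2 differences from -0.95 (Sfn) to 0.35 (Cdh3).

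Medial and lateral libraries shared no sequencing run, so run and compartment cannot be told apart in this comparison. In a fit of all 25 libraries with the run as a term, 0 of the 12 genes were called by adjusted p and 1 by the thresholds of the study. The log2 difference was then -1.26 for Krt14, -1.92 for Krt6a, 1.28 for Krt8 and -0.13 for Krt17. Leaving out 1 library at a time left 0 to 3 calls by adjusted p: Krt14 was lost without anterior lateral 3 (adjusted p = 0.0639), Krt17 without anterior medial 1 or 3 or anterior lateral 3, Krt6a without any 1 of the lateral libraries, and Krt8 without any 1 of the medial libraries. Krt6a fell under the minimum without any 1 of the medial libraries, as Krt8 did without any 1 of the lateral libraries.

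Among genes from other lists, the lateral compartment was higher for Tgfb3, the ligand needed for palate fusion (log2 difference 0.83, adjusted p = 0.0126), and for Egfr, the EGF receptor (1.78, adjusted p = 0.00344). Fgfr2, the receptor for epithelial FGF signals, was lower (-0.61, adjusted p = 0.0427). Of 11 basal lamina and hemidesmosome genes 4 were tested, and Dst, which links keratin to hemidesmosomes, was lower laterally (-0.95, adjusted p = 0.0304). Of 36 further epithelial genes 6 were tested, and only Anxa8 passed the thresholds of the study, 1 lower and 0 higher (-2.42, adjusted p = 0.0643). Non-epithelial markers moved too. Summed endothelial markers were 123 to 151 RPKM in medial and 177 to 204 RPKM in lateral libraries, with 1 of 8 genes called, Cldn5 (1.19, adjusted p = 0.0635). Nerve and Schwann markers summed to 39.6 to 62.3 and 25.4 to 28.4 RPKM, with Prph lower laterally (-3.43, adjusted p = 0.0163) and Sox10 higher (2.43, adjusted p = 0.00408) among 3 tested. The mesenchyme markers summed to 1007 to 1092 and 1068 to 1160 RPKM. The part of these markers in the keratin differences was not tested.

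In the posterior palate Krt14 and Krt17 were again lower laterally, and Sfn with them. Krt14 was at 21.3, 47.2 and 35.4 RPKM medially and 2.35, 1.19 and 3.75 RPKM laterally, a 14.4-fold lower lateral level without overlap. Its log2 difference was -3.85 ± 0.51, with an unadjusted P of 0.000218 and an adjusted p of 0.450. Krt17 was at 7.53, 50.4 and 18.3 and 1.56, 2.22 and 0.569 RPKM, again without overlap, with a log2 difference of -3.81 ± 0.79 and an adjusted p of 0.957. Sfn, the 14-3-3 protein sigma of keratinocytes and periderm, was at 6.81, 13.7 and 7.05 RPKM medially and 2.93, 1.04 and 1.60 RPKM laterally. It was 4.88-fold lower laterally, with a log2 difference of -2.29 ± 0.48 and an adjusted p of 0.957.

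These 3 genes passed the thresholds of the study, all lower, of 7 that reached the minimum, where 1.12% of the 10324 genes tested did. All 3 reached 5 RPKM in medial libraries only, so they were tested only because they were high there. The minimum thus favoured their direction, and their count is not separate support for it. By adjusted p 0 of 7 were called, as were 0% of all genes, although 159 genes had an unadjusted P under 0.05. The median log2 difference of the 7, which include those 3, was -1.34, against 0.05 over all genes. In an alternative chosen after seeing the data, with the second posterior medial library left out and the same genes tested, all 3 remained past the thresholds of the study, which 1.49% of all genes passed, at -3.59 for Krt14, -3.11 for Krt17 and -1.96 for Sfn, with adjusted p from 0.230 to 0.669. Posterior medial and lateral libraries shared no sequencing run either, so run and compartment cannot be told apart among them. A fit of all 25 libraries with the run as a term can separate the 2 only by way of the other groups. Posterior medial 1 and posterior lateral 1 were each alone in their run and add nothing to that difference. In that fit Krt14 and Krt17 remained past the thresholds of the study, at -3.27 and -2.69, and Sfn, at -1.07, did not. Where the minimum was applied anew without any 1 medial library, none of the 3 reached it, and they were not tested. Krt5 then passed the thresholds of the study without posterior medial 3 (log2 difference -1.86, unadjusted P = 0.0193).

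Krt5, Perp, Jup and Krt15 were tested and not called. Krt5 was at 10.1, 27.8 and 5.66 RPKM medially and 5.41, 5.56 and 3.14 RPKM laterally, without overlap, with a log2 difference of -1.34 ± 0.62 (unadjusted P = 0.0702). Jup and Perp were extreme in the second medial library, where Jup was at 0.636 RPKM, against 30.1 and 14.9 in its replicates, and Perp at 53.5, against 4.35 and 9.14.

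Several genes under the minimum also separated here. Krt6a was at 2.67, 8.86 and 8.95 RPKM medially and 0.224, 0.186 and 0 RPKM laterally, with a log2 difference of -4.86 ± 0.70 in the unfiltered fit (adjusted p = 0.511). Dsp was at 4.52, 3.46 and 6.02 and 2.33, 1.14 and 0.896 RPKM, 3.22-fold lower laterally in that fit (unadjusted P = 0.0117). Pkp1 was at 1.01, 10.4 and 3.62 and 0.461, 0.281 and 0 RPKM, and Esrp2, an epithelial splicing regulator, at 4.61, 24.2 and 2.57 and 1.10, 0.785 and 1.21 RPKM, so that posterior medial 2 held the top value of both.

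The simple keratin Krt19 and P-cadherin, Cdh3, went the opposite way. Krt19 was at 3.74, 0 and 0 RPKM medially and 5.65, 7.03 and 4.69 RPKM laterally. Cdh3 was at 1.76, 0.426 and 1.42 RPKM medially and 7.71, 1.79 and 4.09 RPKM laterally. Both were higher laterally in the unfiltered fit (unadjusted P = 0.0298 and 0.0488), in which 9 of the 38 genes passed the thresholds of the study, 7 lower and 2 higher, where 2.55% of 20384 genes did. Without posterior medial 2, in another alternative chosen after seeing the data, Krt19 (3.23, unadjusted P = 0.0940) and Cdh3 (1.23, unadjusted P = 0.118) no longer passed. Krt6a (-4.58), Pkp1 (-2.88), Dsp (-1.88) and Esrp2 (-1.67) remained among 8 genes that did, all lower laterally, where 3.35% of all genes did. Krt8, called higher laterally in the anterior palate, was low in both posterior groups, at 0, 0.236 and 2.15 RPKM medially and 0.654, 0.698 and 0.952 RPKM laterally.

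Of 36 further epithelial genes 2 reached the minimum here and 0 were called, and of 14 epithelial signals 4 did and 0 were called. Egfr (log2 difference 2.69, adjusted p = 0.450) and Met, the receptor for hepatocyte growth factor (2.04, adjusted p = 0.957), were higher laterally by the thresholds of the study, 2 of 5 receptor genes tested. Platelet markers summed to 45.0 to 126 RPKM in medial and 28.7 to 46.4 RPKM in lateral libraries, and skeletal muscle markers to 1.04 to 18.4 and 18.5 to 157 RPKM. Nerve and Schwann markers summed to 26.3 to 50.3 and 14.4 to 16.2 RPKM, without overlap, and endothelial Tek was higher laterally by the thresholds of the study (1.66, adjusted p = 0.957). Their part in these differences was not tested.

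Whether the lateral to medial difference itself changed along the palate was tested as an interaction, posterior minus anterior. Of 16 genes that reached the minimum 0 were called by adjusted p, where 0.00902% of 11089 genes were. By the thresholds of the study 2 passed, where 2.42% of all genes did. Krt14 had an interaction of -1.69 ± 0.63 (unadjusted P = 0.0221, adjusted p = 0.964) and Krt6a of -2.35 ± 0.91 (unadjusted P = 0.0276, adjusted p = 0.964), both estimates being more negative in the posterior palate. Without the second posterior medial library Krt14 was at -1.44 (unadjusted P = 0.0421), and Krt6a at -2.07 no longer passed (unadjusted P = 0.0516). For Krt17 the interaction was -1.31 ± 0.97 (unadjusted P = 0.207) and for Krt8 -0.34 ± 1.22.

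**Figure D5:**
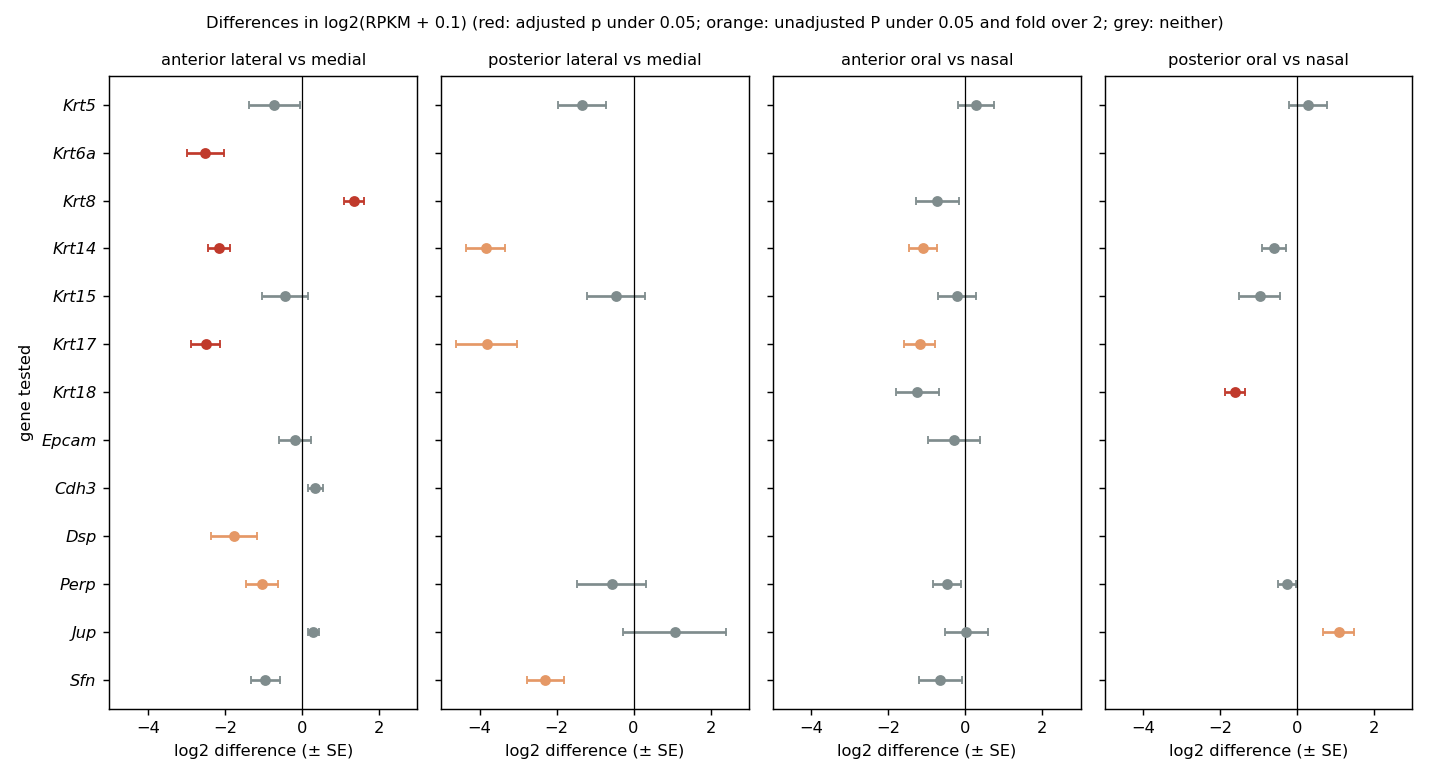
Log2 differences (points) with SE (bars) of the genes that reached the minimum in each of the 4 comparisons, lateral minus medial in the 2 left panels and oral minus nasal in the 2 right panels, on the log2(RPKM + 0.1) scale. Krt14 and Krt17 lie at -2.15 and -2.50 in the first panel and at -3.85 and -3.81 in the second, and Krt18 at -1.61 in the fourth.

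Oral and nasal compartments were compared next, with differences given as oral minus nasal. In the anterior palate the mean levels of Krt14 and Krt17 were lower on the oral side. Within sequencing runs Krt17 was lower there in all 3, and Krt14, Krt8 and Krt18 in 2 of 3. Krt14 was at 5.15, 7.12 and 9.84 RPKM in the 3 oral libraries and 18.2, 19.6, 17.5 and 8.82 RPKM in the 4 nasal libraries, which overlapped through anterior nasal 4. It was 2.14-fold lower orally, with a log2 difference of -1.09 ± 0.36 (unadjusted P = 0.0154, adjusted p = 1.00). Krt17 was at 1.72, 3.04 and 5.40 RPKM orally and 7.04, 4.96, 9.97 and 7.16 RPKM nasally, with overlap between 4.96 and 5.40, and a log2 difference of -1.18 ± 0.41 (unadjusted P = 0.0187, adjusted p = 1.00).

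These 2 of 10 genes passed the thresholds of the study, where 1.44% of the 10684 genes tested did. By adjusted p 0 of 10 were called, as were 0% of all genes, and 318 genes had an unadjusted P under 0.05. The median of the 10 was -0.56, against -0.01 over all genes. Deviations of same-numbered anterior oral and nasal libraries from their group means correlated at 0.116 to 0.243. With the replicate number as a block 4 genes passed the thresholds of the study, all lower orally, where 1.97% of all genes did. Of the blocked pairs only oral 1 and nasal 1 shared a sequencing run. Oral 2 with nasal 2 and oral 3 with nasal 3 came from different runs, so the block does not account for the run. Anterior nasal 4 has no same-numbered oral library and adds nothing to the blocked differences. With that library left out and no block, 2 genes passed, Krt14 (-1.36, unadjusted P = 0.00249) and Krt17 (-1.18, unadjusted P = 0.0377). The 4 genes under the block were Krt18 (-1.36 ± 0.27, unadjusted P = 0.00267), Krt14 (-1.36 ± 0.32), Krt17 (-1.18 ± 0.36) and Krt8 (-1.06 ± 0.38), with adjusted p from 0.709 to 0.9998. Without the block, 0 genes passed when anterior oral 1 was left out and 1 when anterior nasal 2 was.

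Krt8 and Krt18 had their highest levels of all compartments on the anterior nasal side. Krt8 was at 6.08, 4.67 and 14.45 RPKM orally and 8.45, 18.7, 24.1 and 6.13 RPKM nasally, and Krt18 at 2.61, 5.12 and 9.61 and 6.61, 12.9, 26.6 and 9.60 RPKM. Both groups overlapped and neither gene was called (unadjusted P = 0.235 and 0.0546). Within the run that held anterior oral 1 with anterior nasal 1 and 2, the oral minus nasal difference was -1.04 for Krt8 and -1.78 for Krt18. In the run of anterior oral 2 and anterior nasal 3 it was -2.34 and -2.35. In the run of anterior oral 3 and anterior nasal 4, both with Tgfbr2 in their alignment names, it was 1.22 and 0.00.

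For Krt14 the difference was -1.85, -1.29 and 0.16 in the same order of runs, so it was not lower orally in the third. For Krt17 it was -1.72, -1.68 and -0.40, lower orally in each. Of the 38 genes 30, 34 and 13 were lower orally in these runs. The share over all genes was not counted within runs, so these counts do not set the 38 genes apart. Rab25, a GTPase of recycling endosomes in epithelia, was lower orally in all 3, at -1.94, -3.27 and -2.33. It was under the minimum at 1.15, 0.990 and 0.863 RPKM orally and 4.16, 5.31, 10.4 and 4.74 RPKM nasally, without overlap, with a log2 difference of -2.42 ± 0.39 in the unfiltered fit (unadjusted P = 0.000418, adjusted p = 0.543). Krt7, another simple keratin, was at 0.677, 1.08 and 1.14 and 3.77, 2.06, 6.70 and 3.90 RPKM, also without overlap (-1.89 ± 0.44, unadjusted P = 0.00366). In that fit 4 of the 38 genes passed the thresholds of the study, all lower orally, where 3.28% of 22072 genes did, and 0 passed by adjusted p, as did 0% of all genes.

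Markers of airway and ciliated epithelium moved in the same direction. They summed to 33.2 to 195 RPKM in oral and 38.9 to 751 RPKM in nasal libraries, and 3 of 5 tested were lower orally by the thresholds of the study, among them Foxa1 (-2.35, adjusted p = 0.114). The extremes came from Agr2, a secretory cell gene, at 682 RPKM in anterior nasal 3 and 167 RPKM in anterior oral 2, which shared a run. Endothelial markers went the opposite way, at 139 to 228 RPKM orally and 83.4 to 153 RPKM nasally. Of 36 further epithelial genes 7 were tested, and Anxa8 (-2.70) and Ehf (-1.95) were lower and Cldn1 (1.52) higher orally by the thresholds of the study. The part of these markers in the keratin values was not tested.

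In the posterior palate Krt18 was the gene called by adjusted p between oral and nasal compartments. It was at 1.94, 1.46 and 2.52 RPKM orally and 7.26, 5.19 and 5.98 RPKM nasally, without overlap. It fell 3.05-fold, with a log2 difference of -1.61 ± 0.26 and an adjusted p of 0.0284. Within runs its difference was -1.85 (oral 1 and nasal 1) and -1.39 (oral 2 and 3 with nasal 2). It was 1 of 6 genes tested to be called by adjusted p, where 1.25% of the 10586 genes tested were, and that call was lost without any 1 oral library (adjusted p from 0.0615 to 0.0887). Krt18 reached 5 RPKM in nasal libraries only, so it was tested only because it was high there. With no minimum 0 of the 38 genes were called by adjusted p, where 0.0532% of all genes were. Without any 1 nasal library Krt18 fell under the minimum and was not tested.

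Jup went the other way, at 17.5, 33.5 and 19.9 RPKM orally and 14.6, 14.1 and 5.79 RPKM nasally, without overlap. It passed the thresholds of the study, with a log2 difference of 1.09 ± 0.41 (adjusted p = 0.461), so that 2 of 6 genes did, where 3.5% of all genes did. It was 0.81 without posterior oral 2 and 0.66 without posterior nasal 3, no longer past the thresholds. Within the same runs its difference was 0.26 and 0.86. The median of the 6 was -0.43, against -0.01 over all genes. Krt14 (-0.59 ± 0.32), Krt15 (-0.97 ± 0.53), Krt5 and Perp were tested and not called.

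Other simple epithelial genes lay under the minimum and were lower orally. Krt8 was at 2.02, 0.807 and 0.301 RPKM orally and 3.65, 4.89 and 2.65 RPKM nasally, and Krt19 at 1.11, 1.70 and 1.98 and 7.08, 13.8 and 3.49 RPKM, both without overlap. In the unfiltered fit Krt19 had a log2 difference of -2.10 ± 0.53 (adjusted p = 0.297) and Krt8 of -2.02 ± 0.62 (adjusted p = 0.437). Elf3, a transcription factor of simple epithelia, Esrp1 and Cdh1, E-cadherin, were also lower there (unadjusted P = 0.0105, 0.0213 and 0.0497), so that 6 of the 38 genes passed the thresholds of the study, all lower, where 5.24% of 20679 genes did, and 0 passed by adjusted p, where 0.0532% did. Cldn1, a claudin of stratified epithelium outside the 38 genes, was higher orally (2.77, adjusted p = 0.0423), as was Itga6, an integrin of hemidesmosomes (1.21, adjusted p = 0.0402), while Fgfr2 was lower (-1.36, adjusted p = 0.0345). Airway and ciliated markers summed to 21.4 to 29.3 RPKM orally and 31.5 to 88.7 RPKM nasally, and endothelial markers to 154 to 212 and 65.6 to 102 RPKM, with 5 of 8 passing either threshold, all higher orally. Their part was not tested.

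The oral to nasal difference was not shown to change along the palate. Of 11 genes tested for that interaction 0 passed either threshold and 0 had an unadjusted P under 0.05, where 0.035% of 11442 genes passed by adjusted p and 2.38% by the thresholds of the study. The interaction was 0.50 ± 0.51 for Krt14, -0.76 ± 0.81 for Krt15, 1.06 ± 0.78 for Jup and -0.36 ± 0.70 for Krt18. Under no filter Rab25 alone of the 38 genes passed the thresholds of the study, where 3.3% of 22270 genes did (1.85 ± 0.48, unadjusted P = 0.00268), with levels of 1.36, 2.22 and 1.51 RPKM in posterior oral and 2.02, 2.94 and 2.63 RPKM in posterior nasal libraries.

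Along the length of the palate none of the better expressed epithelial genes passed a threshold, in a fit of region alone. That fit held no term for compartment, so differences between compartments count as spread in it and can hide a difference between regions. Here a gene had to reach 10 RPKM in 6 or more of the 25 libraries, as 5 of the 38 did, Krt5, Krt14, Krt15, Perp and Jup. All 5 were lower in the 12 posterior than in the 13 anterior libraries, at log2 differences from -0.66 (Krt5, unadjusted P = 0.0510) to -0.48 (Perp), and 0 passed either threshold or had an unadjusted P under 0.05, where 3.32% of 8608 genes passed by adjusted p and 1.75% by the thresholds of the study. Without the second posterior medial library the Jup difference was -0.16, against -0.53 with it.

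Krt8, under that minimum, had a lower posterior mean in all 4 compartments. It was at 2.89 ± 0.674 RPKM in anterior medial, 7.75 ± 2.88 in anterior lateral, 8.40 ± 5.29 in anterior oral (SD, n = 3 each) and 14.3 ± 8.47 in anterior nasal libraries (n = 4). The posterior levels were 0.796 ± 1.18, 0.768 ± 0.161, 1.04 ± 0.881 and 3.73 ± 1.12 RPKM in the same order (n = 3 each). In the unfiltered fit Krt8 fell 6.72-fold posteriorly, with a log2 difference of -2.75 ± 0.52 and an adjusted p of 0.00250. Within runs that held both regions the difference was -1.76 in medial, -2.74 in lateral, -2.78 in oral and -0.73 in nasal libraries. The medial value averages posterior medial 2 (0.236 RPKM), the library with 18 genes at 0, and posterior medial 3 (2.15 RPKM). Posterior medial 3 lay just under the lowest anterior medial library (2.22 RPKM). The oral and nasal values each rest on 1 pair of libraries with Tgfbr2 in their alignment names.

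Dsg2, a desmosomal cadherin, also passed in that fit (-0.97 ± 0.26, adjusted p = 0.0453), so that 2 of the 38 genes were called by adjusted p, where 2.17% of 22399 genes were. By the thresholds of the study 5 genes passed, Krt8, Epcam (-1.02), Cldn6 (-1.45), Dsp (-1.04) and Pkp1 (-1.22), all lower posteriorly, where 4.39% of all genes did. Without posterior medial 2, also chosen after seeing the data, Krt8 (-2.60, adjusted p = 0.00434) and Dsg2 (-1.07, adjusted p = 0.0180) were again called by adjusted p, where 2.84% of all genes were, and 7 genes passed the thresholds of the study, all lower, where 4.15% of all genes did. Of the 38 genes 35 had a lower posterior estimate and 3 a higher one, with a median of -0.61 against -0.09 over all genes. Within single runs 25 (with posterior medial 2 included), 30, 31 and 20 of the 38 were lower posteriorly, in medial, lateral, oral and nasal libraries. The share over all genes was not counted there, so these counts do not set the 38 genes apart. Of the 36 further epithelial genes 3 were tested, and Tfap2a, a transcription factor of surface ectoderm and neural crest, was lower (-1.81, adjusted p = 4.59e-05).

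The regulators of epithelial identity were all low. Trp63, the regulator of stratified epithelium, lay between 0.495 and 4.40 RPKM and was above 0 in all 25 libraries. Grhl2 reached 4.12, Grhl3 2.64, Ovol1 1.38 and Elf3 3.32 RPKM at most. Grhl1 reached 8.44 RPKM in posterior medial 2 and 2.23 RPKM or less in the other libraries. The splicing regulators Esrp1 and Esrp2, which keep epithelial exons in, reached 12.4 and 24.2 RPKM in that same library and 4.61 RPKM or less elsewhere.

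The adhesion genes peaked in single libraries. Epcam ranged from 0.417 RPKM in posterior lateral 3 to 28.4 RPKM in anterior nasal 3. Cdh1 peaked at 15.6 RPKM in posterior medial 2 and at 10.6 RPKM in anterior nasal 3, and lay at 5.12 RPKM or less in the others. Cdh3 ranged from 0.426 to 7.71 RPKM.

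Most tight junction and protease genes were low. Cldn4 reached 2.36 RPKM with 8 libraries at 0, Cldn7 4.57 with 5 at 0, and Marveld3 0.809 with 7 at 0. Cldn6 stayed at 5.67 RPKM or less apart from anterior nasal 4. The membrane protease St14, matriptase, reached 2.65 and its activator Prss8 3.71 RPKM, while their inhibitors Spint1 and Spint2 reached 6.03 and 15.6 RPKM.

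Ap1m2, the epithelial subunit of the AP-1 sorting complex, reached 1.78 RPKM with 6 libraries at 0, and Fgfbp1, a secreted carrier of FGFs, 0.966 RPKM with 11 at 0. With 1 read on 2000 bases worth 0.153 RPKM at the implied median depth, a value of 0 does not show absence. Of the protease and trafficking genes 0 reached the minimum of any comparison. Pkp3 and Dsg2 also stayed at 2.68 RPKM or less. In all, 17 of the 38 genes were above 0 in every library. Of 8 cornified skin genes, Krt1, Krt10 and Lor among them, the sum was 2.44 to 19.0 RPKM.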

How the data were processed

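Palate compartments of E14.5 CD1 embryos were captured by laser, and their RNA was amplified (NuGEN Ovation V2), tagmented (Nextera) and read as single-end 50-base reads on an Illumina HiSeq. The deposited values are RPKM, which the authors made after alignment with TopHat to mm9 (submitters' processing notes), with duplicates and reads of more than 1 alignment removed. The authors' GeneSpring scaling leaves no read counts, so depth was inferred from the steps between low values. The 38 members and all other lists were chosen with earlier results of these data known.

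Log2(RPKM + 0.1) was fitted with limma 3.58.1 in R 4.3.3, with Benjamini-Hochberg adjustment over all genes tested. Each comparison of lateral with medial or oral with nasal was a fit of its pair of groups. Posterior against anterior was a fit of region alone on all 25 libraries, and each interaction a fit of its 4 groups. The minimum was 5 RPKM in 3 libraries (10 RPKM in 6 for posterior against anterior). The test was run on simulated data with the same spread in all groups and no values at 0. These data differ in both, so that run does not vouch for the low genes. All members were named by role, with values for those called in the filtered or unfiltered fit, and other genes only where called. Genes with 2 rows in the table were left out of tests. The main fits held no pairing, and the replicate number was used as a block only in an alternative. Deviations of same-numbered anterior oral and nasal libraries correlated at 0.243, 0.218 and 0.116 over 11913 genes. Only the first of these pairs shared a sequencing run. In the other pairs of groups at least 1 correlation was under 0.1. Alternatives were pseudocounts of 0.01 and 1, a minimum of 1 RPKM, no minimum, quantile scaling, a mean-variance trend, all 25 libraries in 1 fit, the sequencing run as a term, the replicate block and leaving out each library. Fits without posterior medial 2 on the same genes, with and without the minimum, were added after seeing the data. Promoters are from RefSeq, build GRCm38.p6, while gene positions from the table are mm9. Plots were drawn in matplotlib 3.10.9, and tables used pandas 2.3.3 and numpy 2.4.6 under Python 3.11.15.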

Additional observations from a re-analysis of the deposited data

Results flagged for a closer look

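In groups of 4 libraries the extreme library was compared with the others by Dixon's test, the gap to the nearest library over the whole range, at the 95% level. The only such group was anterior nasal, so 38 groups were tested, 1 for each gene, and 3 held an outlying library, where chance gives about 5%. Krt6a was at 0.653 RPKM in anterior nasal 4, far under the next value of 3.07 RPKM. Cldn6, a claudin of early epithelium, was at 13.9 RPKM in the same library, where the next value was 3.73 RPKM. Cldn7, a claudin of simple epithelium, was at 4.57 RPKM in anterior nasal 3, where the next value was 0.671 RPKM.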

How the results depend on the processing

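Of the 21 single gene results recomputed from tests above the minimum, none changed sign under the alternatives run, which do not include the within-run values given above. Without a minimum, calls by adjusted p were 0 for anterior lateral against medial (4 in the analysis above), 0 for posterior oral against nasal (1) and 2 for posterior against anterior (0), and calls by the thresholds of the study were 9 for posterior lateral against medial (3), 4 and 6 (2 each) for the anterior and posterior comparisons of oral with nasal, and 5 for posterior against anterior (0). With a minimum of 1 RPKM the same counts were 2, 0 and 2, and 9, 5, 7 and 5. With all 25 libraries in 1 fit, calls by adjusted p were 1, 2 and 0 for anterior lateral against medial, posterior lateral against medial and posterior oral against nasal, and calls by the thresholds of the study were 1 and 0 for anterior and posterior oral against nasal. With the run as a term, calls by adjusted p were 0 for anterior lateral against medial and posterior oral against nasal, and by the thresholds of the study 1 and 0. Quantile scaling gave 1 call by adjusted p for posterior lateral against medial, the mean-variance trend 0 for posterior oral against nasal, and a pseudocount of 1 gave 1 call by the thresholds of the study for anterior oral against nasal. With the replicate block, which also takes the unpaired anterior nasal 4 out of the contrast, that count was 4 and the one for posterior lateral against medial 4 (3 without it), and no call of a single gene reported above was lost under it. Leaving out 1 library at a time, calls by adjusted p were 0 to 3 for anterior lateral against medial and 0 to 0 in the other comparisons, and calls by the thresholds of the study were 3 to 6 and 0 to 3 for anterior and posterior lateral against medial, 0 to 3 and 1 to 3 for anterior and posterior oral against nasal, and 0 for posterior against anterior. The cause of these changes was not tested. For the 15 called single gene results a library was left out 104 times in all, and the call was kept 51 times, lost 35 times and not testable 18 times, as the gene was then under the minimum. Without a minimum and without posterior medial 2, chosen after seeing the data, calls by the thresholds of the study were 8 for posterior lateral against medial and 7 for posterior against anterior, with 2 by adjusted p for the latter. At 5 RPKM counting error alone is 12.4 to 24.7% if the implied depth holds, and such error limits the low genes most.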
